A study of Homo sapiens with 24 samples.

Results

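The respiratory chain genes of a diffuse midline glioma cell line are described here. They were every protein-coding gene in the deposited count file whose symbol begins with NDUFA, NDUFB, NDUFC, NDUFS or NDUFV and a number (complex I, without the NDUFAF assembly factors), with UQCR (complex III), with COX4 to COX8 (complex IV) or with ATP5 (complex V), together with the 13 protein genes of the mitochondrial genome. The rule found 98 of the 58676 genes in the file. Of these, 85 are nuclear (37 in complex I, 9 in complex III, 19 in complex IV and 20 in complex V) and 13 are mitochondrial (7, 1, 3 and 2 in the same complexes). NDUFA4 and NDUFA4L2 were placed in complex IV, where the NDUFA4 protein is found. The question asked of them was whether the nuclear and the mitochondrial genes moved together over 24 RNA-seq libraries.

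The cells were HSJD-DIPG-007, an established diffuse midline glioma line grown as spheroids, and the labels give every library the genotype H3F3A K27M, ACVR1 R206H and PIK3CA MIS. They received vehicle or LLY-283, an inhibitor of the arginine methyltransferase PRMT5 that occupies its S-adenosylmethionine pocket, at a partly growth-inhibiting concentration (GI40). Poly(A) RNA was sequenced at day 0 (3 vehicle and 3 LLY-283 libraries), days 1, 2 and 3 (1 and 1 each), day 5 (3 and 3), day 7 (2 and 2) and day 10 (1 and 1). Libraries of a treatment and day are technical repeats of a single line, so p-values of the day 0 and day 5 comparisons measure only the spread between these repeats. Tests that join days with 1 library per arm have no repeats on those days. In them, days of the same line stand in for repeats, and the ratio and share tests over days also count the technical repeats of days 5 and 7 as units. The labels speak of a single dose, while the methods say that medium with a second dose was given after day 5, so days 7 and 10 follow that change.

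Complexes I, III and IV pass electrons from NADH to oxygen and pump protons across the inner mitochondrial membrane, and complex V, the ATP synthase, lets the protons back to make ATP. Each of these complexes is built from nuclear subunits, translated in the cytosol and imported, and from core subunits encoded in the mitochondrial genome. Mitochondrial genes are transcribed as long polycistronic RNAs by a dedicated polymerase with TFAM and TFB2M and then cut apart, whereas nuclear subunit genes each have their own promoter, so the 2 sets are made by separate machineries. In bulk RNA, fewer cells expressing a gene and less RNA of it per cell cannot be told apart.

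A stretch of the mitochondrial genome and 3 nuclear promoters are printed, the first because it limits what a count of a gene can mean, the promoters as examples of members called higher in vehicle culture and lower with LLY-283 at day 5, comparisons that share the 3 vehicle libraries of day 5. MT-ATP8 and MT-ATP6 share 46 bases, which are 22.2% of MT-ATP8, and reads inside them cannot be given to a single gene. The shared bases stand in capitals at chrM:8527-8572 of the plus strand, with 30 bases of MT-ATP8 before and of MT-ATP6 after them.
MT-ATP8/MT-ATP6 (chrM:8497-8602): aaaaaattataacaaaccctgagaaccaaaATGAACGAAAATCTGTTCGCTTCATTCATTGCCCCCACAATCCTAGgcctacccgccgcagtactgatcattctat
MT-ND4L and MT-ND4 likewise share 7 bases at chrM:10760-10766. MT-ND6 is the only mitochondrial protein gene on the opposite strand (chrM:14149-14673), and its RNA is known to lack a long poly(A) tail.

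RefSeq promoter windows of 300 bases (GRCh38.p14, from 250 bases before to 50 after the start site) were matched to 67 of the 85 nuclear members. They were searched on both strands for GCGCATGC, a core of the NRF1 site, for CCGGAAGT, an ETS site of the kind bound by GABPA, and for AAGATGGC, a core of the YY1 site. At least 1 of the 3 was present in 26 of the 67 windows (38.8%), against 9.94% of all 27305 windows of the same length. GCGCATGC was in 11 of 67 (16.4%, against 3.27% of all windows), CCGGAAGT in 9 (13.4%, against 4.44%) and AAGATGGC in 10 (14.9%, against 3.03%). The share among the members that rose in vehicle culture (16 of 37, 43.2%) and among those lower with LLY-283 at day 5 (7 of 16, 43.8%), both described below, was near that of all 67. Different motifs overlapped each other in 2 of the 27305 windows, and the 2 strands of GCGCATGC can overlap, as they do in ATP5F1C. A match of letters is a description and not a bound site. Of the 11 members called in both of these comparisons, which share libraries and so are not independent, 9 had a window and 5 held a motif. The windows shown are, for each motif, that of the member with the smallest day 5 p among these, read 5′ to 3′ on the strand of the gene, with the motif in capitals.
ATP5F1C (chr10:7787927-7788226, plus strand, GCGCATGC on both strands): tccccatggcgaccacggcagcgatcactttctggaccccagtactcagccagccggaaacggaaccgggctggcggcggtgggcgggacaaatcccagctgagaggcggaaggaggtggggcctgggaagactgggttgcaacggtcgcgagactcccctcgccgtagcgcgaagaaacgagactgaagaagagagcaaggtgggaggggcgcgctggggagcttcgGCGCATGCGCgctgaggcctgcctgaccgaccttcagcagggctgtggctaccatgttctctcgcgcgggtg
NDUFA13 (chr19:19515975-19516274, plus strand, CCGGAAGT): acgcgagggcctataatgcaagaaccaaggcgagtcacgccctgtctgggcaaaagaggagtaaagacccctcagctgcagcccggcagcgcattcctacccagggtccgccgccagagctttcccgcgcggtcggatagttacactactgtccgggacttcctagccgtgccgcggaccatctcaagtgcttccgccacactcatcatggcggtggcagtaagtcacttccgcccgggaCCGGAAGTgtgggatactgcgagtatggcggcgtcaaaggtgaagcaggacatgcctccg
UQCRC1 (chr3:48609597-48609896, minus strand, AAGATGGC): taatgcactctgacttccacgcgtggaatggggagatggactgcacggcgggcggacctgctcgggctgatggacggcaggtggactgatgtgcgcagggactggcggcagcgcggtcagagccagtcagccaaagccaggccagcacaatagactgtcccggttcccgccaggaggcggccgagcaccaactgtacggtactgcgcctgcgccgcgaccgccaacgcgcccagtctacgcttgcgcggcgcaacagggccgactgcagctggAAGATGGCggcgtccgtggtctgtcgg

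Libraries held 13835205 to 23190369 estimated counts. At day 5 the vehicle libraries (13835205 to 16691287) were all shallower than the LLY-283 libraries (17339741 to 19516458), and the part of this in the results was not tested. Along the axis from the day 5 vehicle mean (0%) to the day 5 LLY-283 mean (100%), taken over the called genes without the respiratory chain members, vehicle day 7 repeat 2 lay at 47.2% and LLY-283 day 7 repeat 2 at -8.61%, while their repeats 1 lay at -3.68% and 72.9%. The library labelled LLY-283 day 7 repeat 2 thus goes against its label and that labelled vehicle day 7 repeat 2 lies midway, and day 7 was kept out of the gene-wise fit over single-library days. The vehicle library of day 10 lay at 61.1% on that axis. Of 11 glioma markers 10 had a median above 1 CPM (the usual unit of counts scaled by library size), with SOX10 the exception, and the summed fibroblast markers ran from 197.8 to 379.7 CPM. FN1 stood out at 60.5 CPM in vehicle day 5 repeat 3, 30.01 in vehicle day 7 repeat 1 and 26.1 in LLY-283 day 2, against at most 8.20 in the other libraries. COL1A1 stood out in the same libraries, at 53.9, 31.22 and 31.52 CPM in that order, against at most 10.71 CPM in the others. At day 5, 3 of 9 tested fibroblast markers were called higher with LLY-283 and 0 lower. Of these 9 log2 differences 5 were below 0, with a median of -0.14 and a range of -3.94 to 1.7. Of 10 glioma markers 5 were higher and 2 lower, and the 1 tested marker of endothelial or blood cells was not called. The summed endothelial and blood cell markers reached at most 10.07 CPM outside day 10. At day 10 they were 25.54 CPM with vehicle and 12.39 CPM with LLY-283. Of all genes 12% were called higher and 14.1% lower, and the part of these markers in the results was not tested.

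Mitochondrial transcripts were by far the more abundant set. Per kilobase of the canonical transcript, the mean level over 24 libraries had a median of 2549 CPM per kb over the 13 mitochondrial genes, from 667.1 for MT-ND6 to 5230 for MT-CO2, which encodes a copper-bearing core subunit of cytochrome c oxidase. The 77 nuclear members with a mean above 1 CPM had a median of 91.6 CPM per kb, from 2.38 for NDUFA4L2 to 909.0 for NDUFB9, so the highest nuclear member lay between the lowest mitochondrial genes, MT-ND6 and MT-ND5 (1049 CPM per kb). Counts are per gene, while the divisor is the canonical transcript alone, 691 bases for NDUFB9 and 8459 for UQCRB. The order of the nuclear members therefore depends on this choice of length. In the vehicle libraries of day 0 the 13 mitochondrial genes took 4.14%, 4.07% and 3.59% of all counts, and the 85 nuclear genes 0.803%, 0.829% and 0.865%.

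The balance of the 2 sets was measured as the log2 of the summed mitochondrial over the summed nuclear counts, which needs no normalization for library size. At day 0 it was 2.37, 2.29 and 2.05 in the vehicle and 2.00, 2.20 and 2.23 in the LLY-283 libraries, and the groups overlapped (difference -0.10, exact two-sided permutation p = 0.5). By day 1 it had dropped in both arms, to 1.37 with vehicle and 1.44 with LLY-283. In vehicle it stayed low, at 1.44 on day 2, 1.56 on day 3, 1.38, 1.45 and 1.26 on day 5 and 1.31 and 1.31 on day 7. With LLY-283 it went to 1.79 on day 2 and 2.15 on day 3, and stood at 1.56, 1.88 and 1.89 on day 5. At day 7 the LLY-283 libraries had 1.80 and 1.37, the lower value being repeat 2, and at day 10 the values were 1.62 with vehicle and 2.04 with LLY-283.

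**Figure D1:**
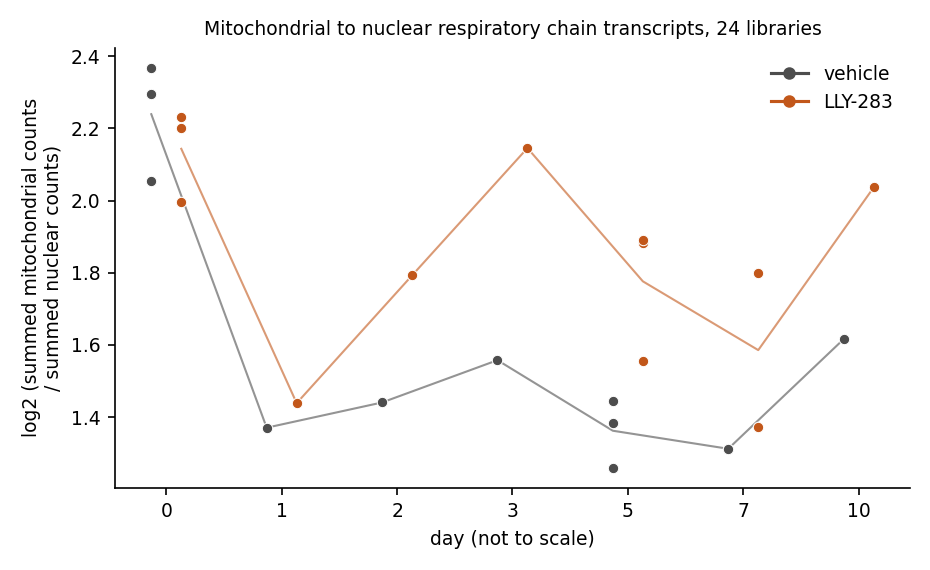
The log2 of summed mitochondrial over summed nuclear respiratory chain counts (y axis) by day (x axis, not to scale), with a point for each of the 24 libraries and a line through the mean of each treatment. Both arms drop from between 2.00 and 2.37 at day 0 to 1.37 and 1.44 at day 1, and the LLY-283 points lie above the vehicle mean on each of the 6 later days.

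The ratio was higher with LLY-283 on 6 of 6 days after day 0. The daily differences were 0.07, 0.35, 0.59, 0.41, 0.27 and 0.42 on days 1, 2, 3, 5, 7 and 10, with a mean of 0.35, a 1.28-fold higher ratio. Labels permuted within days gave an exact two-sided p of 0.001042, the smallest that the 1920 arrangements allow, and 0.005208 after Benjamini-Hochberg adjustment over the 5 tests of the ratio. The permutation moved single libraries, so the technical repeats of days 5 and 7 multiply the arrangements, here and in the subsets below. With each day as 1 unit, 6 days could not give a p this small, and that test was not run. Without day 7 the mean difference was 0.37 (exact permutation p = 0.00625), and without the day 7 repeat 2 libraries 0.39 (exact permutation p = 0.003125). These are again the smallest p-values that the 320 and 640 arrangements allow. Leaving out the 3 places where FN1 stood out (all of day 2, and on days 5 and 7 the vehicle libraries concerned), a choice made after the fibroblast marker levels were seen, it was 0.34 (exact permutation p = 0.0125).

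Within day 5 the difference was 0.41, a 1.33-fold higher ratio with non-overlapping groups (1.36 ± 0.0943 for vehicle and 1.78 ± 0.191 for LLY-283, SD, n = 3 each; exact permutation p = 0.1). From day 0 to day 5 the ratio fell by 0.88 with vehicle, 1.84-fold, and by 0.37 with LLY-283, 1.29-fold, again without overlap (exact permutation p = 0.1 each). A comparison of 3 against 3 cannot give a p below 0.1. Both parts of the ratio differed in their daily mean: the mitochondrial share of counts was higher with LLY-283 on 6 of 6 days (mean log2 difference 0.28, exact permutation p = 0.004167) and the nuclear share lower on 6 of 6 days (-0.07, exact permutation p = 0.001042). These p-values are unadjusted. The mitochondrial share was close on day 1 (2.38% with vehicle, 2.43% with LLY-283), as was the nuclear share on day 10 (0.929% and 0.925%). In the repeat 2 libraries of day 7 the mitochondrial share was lower with LLY-283 (2.53% and 2.41%).

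**Figure D2:**
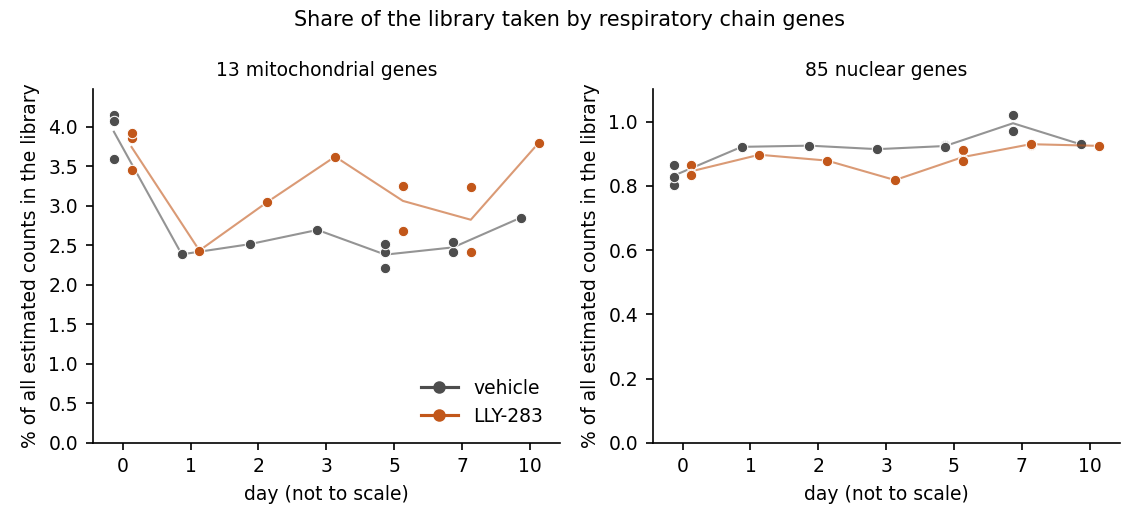
Percentage of all estimated counts (y axes, from 0) taken by the 13 mitochondrial genes (left) and the 85 nuclear genes (right) by day, with a point for each library and lines through the means of vehicle and LLY-283. The mitochondrial share is 2.21% to 2.51% with vehicle and 2.68% to 3.25% with LLY-283 at day 5, while the nuclear share moves only between 0.803% and 1.02% over all libraries.

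In spheroids cultured without the drug, mitochondrial transcripts were lower at day 5 than at day 0 and many nuclear ones were higher. These are relative counts of poly(A) RNA, and the parts of culture time, handling and RNA capture in them were not tested. In vehicle day 5 against vehicle day 0, edgeR's quasi-likelihood test (Benjamini-Hochberg adjusted p under 0.01, here and below what is meant by called) found all 13 mitochondrial genes lower, with a median log2 change of -0.67, and 44 nuclear members higher and 3 lower of 77 tested, with a median of 0.21. Over all 17106 genes tested 38.9% were called, 22.2% higher and 16.7% lower, with a median of -0.02. Scaled by library size alone, 3039 genes of all were higher and 3545 lower in place of 3799 and 2853, and the members gave 40 nuclear higher, 5 lower and 13 mitochondrial lower. Without vehicle day 0 repeat 1 only 7 of the mitochondrial genes were still called lower, with a median of -0.65.

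Among the mitochondrial genes the fall in vehicle was steepest in MT-ND1, a membrane subunit of complex I at the quinone site, whose CPM went from 2735, 2745 and 2388 at day 0 to 1362, 1419 and 1164 at day 5 (log2 change -1.01 ± 0.10 SE, 2.02-fold lower, adjusted p = 0.000695). It was shallowest in MT-ND3 (chrM:10059-10404), another membrane subunit of complex I, which went from 596.0, 608.2 and 589.2 to 545.1, 525.7 and 497.7 CPM (-0.21 ± 0.038, adjusted p = 4.26e-05). The groups, judged on CPM normalized within each comparison, did not overlap for any of the 13, which held for 27.5% of all genes in that direction. MT-CYB (cytochrome b of complex III), MT-ND5 and MT-ND6 fell by 0.81, 0.81 and 0.82, MT-CO1, MT-CO3 and MT-CO2 of the complex IV core fell by 0.73, 0.68 and 0.47, and MT-ATP6 and MT-ATP8 of complex V fell by 0.65 and 0.62. MT-ND2, MT-ND4 and MT-ND4L fell by 0.67, 0.55 and 0.49. The mitochondrial ribosomal RNAs, which are not members and are only partly captured by poly(A) selection, fell further, MT-RNR1 by 1.31 and MT-RNR2 by 1.06.

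The nuclear rise in vehicle was spread over the complexes: 17 of 36 tested in complex I, 7 of 9 in complex III, 9 of 13 in complex IV and 11 of 19 in complex V were called higher, against 22.2% of all genes. Non-overlapping higher groups were found for 51 of 77, against 29.7% of all genes. The complex III core subunit UQCRC2 (chr16:21953288-21983660) went from 98.5, 100.2 and 105.9 to 153.6, 152.6 and 151.4 CPM (log2 change 0.57 ± 0.038, 1.49-fold, adjusted p = 6.56e-13). Its partner core subunit UQCRC1 (chr3:48599002-48610976) went from 122.7, 122.2 and 129.8 to 178.8, 180.0 and 181.4 CPM (0.51 ± 0.037, adjusted p = 3.91e-12). ATP5MF, the f subunit of the membrane part of ATP synthase (chr7:99448475-99466186), went from 102.7, 111.1 and 116.0 to 164.4, 156.0 and 155.3 CPM (0.51 ± 0.042, adjusted p = 3.47e-11). In each of these 3 genes every day 5 library was above every day 0 library.

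Further called rises were those of UQCRH, the complex III hinge protein (log2 change 0.37), of ATP5F1A, the alpha subunit of the catalytic head (0.33), of ATP5PO, a subunit of the peripheral stalk (0.40), of COX7C, COX4I1 and COX8A in complex IV (0.36, 0.35 and 0.35), and of the complex I accessory subunits NDUFA2, NDUFC1 and NDUFA13 (0.48, 0.45 and 0.30). The 3 members that fell were NDUFV1, the flavin-bearing subunit that takes electrons from NADH (-0.17), NDUFA9, an accessory subunit next to the quinone site (-0.14), and ATP5MC1, 1 of the genes for the c subunit of the ATP synthase rotor ring (-0.20, from 69.2, 77.8 and 77.2 to 68.9, 60.5 and 67.5 CPM). For ATP5MC1 the lowest day 0 library (69.2 CPM) was close to the highest day 5 library (68.9 CPM), and for NDUFA9 these overlapped (136.5 and 136.8 CPM). Of the 3 falls none was called with all 24 libraries in a single fit, and 1 to 4 nuclear members were called lower when each library was left out.

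**Figure D3:**
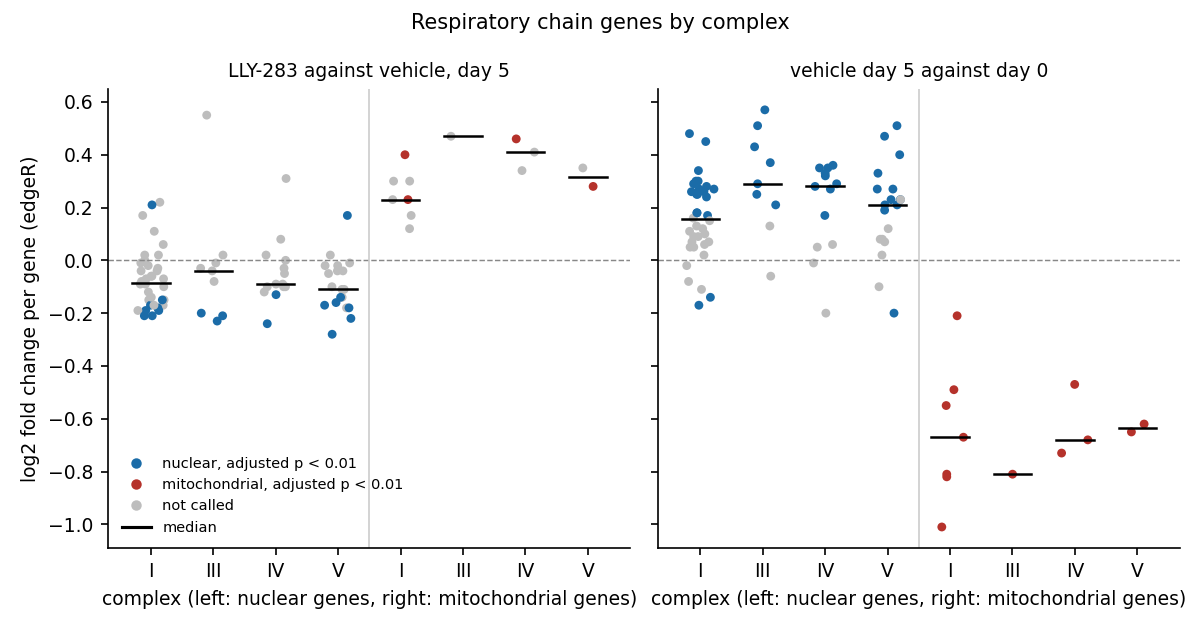
Log2 fold change of each respiratory chain gene (y axis) by complex, nuclear genes left and mitochondrial genes right of the vertical line, for LLY-283 against vehicle at day 5 (left panel) and vehicle day 5 against day 0 (right panel). Coloured points were called at adjusted p under 0.01, grey points were not, and black bars are medians. At day 5 all 13 mitochondrial points lie above 0 while the nuclear medians lie below it, and in vehicle culture the 2 sets lie on the opposite sides.

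The same 5 days were compared within the LLY-283 arm, and the difference between the arms was tested as an interaction, given further on. In LLY-283 day 5 against LLY-283 day 0, 2 mitochondrial genes were called lower, MT-ND1 (-0.78 ± 0.12, adjusted p = 0.00528) and MT-ND2 (-0.48 ± 0.084, adjusted p = 0.0055), and MT-ND3 was called higher (0.19 ± 0.036, adjusted p = 8.25e-05), with a median of -0.27 over the 13. Of 78 nuclear members tested 33 were higher and 8 lower, with a median of 0.08. Over all 17341 genes 42.4% were called, 22.9% higher and 19.5% lower, with a median of 0.01. The mitochondrial groups did not overlap for 10 genes lower and 1 higher, against 27.6% and 30.1% of all genes, and for the nuclear members these counts were 10 lower and 33 higher.

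MT-ND3 went from 600.4, 601.8 and 604.2 CPM at day 0 to 642.0, 701.2 and 693.6 at day 5 of LLY-283, so at day 5 the 2 arms stood on opposite sides of their day 0 levels. With all 24 libraries in a single fit MT-ND3 was not called here (adjusted p = 0.102). The mitochondrial count of 3 depends on the libraries: without LLY-283 day 0 repeat 2 only MT-ND3 was called, and a DESeq2 Wald test called 7 lower and 1 higher. The ribosomal RNAs again fell, MT-RNR1 by 1.28 and MT-RNR2 by 0.91. The nuclear genes that fell with LLY-283 were NDUFA9, NDUFB10, NDUFB2, NDUFB7, NDUFV1, COX7A2, ATP5F1D and ATP5MC1, from -0.18 for NDUFV1 to -0.49 for ATP5MC1. The vehicle and LLY-283 time comparisons share no libraries. They had 28 higher calls in common, 28 of 44 with vehicle and 28 of 33 with LLY-283. Of all genes 22.2% were called higher in vehicle and 22.9% with LLY-283. The overlap over all genes is not given here, so that of the members has no background beside it. NDUFV1, NDUFA9 and ATP5MC1 were called lower in both, but in vehicle culture these calls were lost with all 24 libraries in a single fit.

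LLY-283 was compared with vehicle at day 5. Of the 13 mitochondrial genes 4 were called higher (MT-ND3, MT-CO2, MT-ND4L and MT-ATP8) and none lower, with all 13 log2 differences above 0 and a median of 0.30. Of 78 nuclear members tested 18 were called lower and 2 higher, with a median of -0.09. Over all 16491 genes 26.1% were called, 12% higher and 14.1% lower, with a median of 0.02. Scaled by library size alone, 2274 genes of all were higher and 1840 lower, and the nuclear members gave 3 higher and 12 lower. The nuclear members called lower were 23.1% of those tested, against 14.1% of all genes, and without LLY-283 repeat 1 39.7% against 15.2%, but without LLY-283 repeat 2 they were 10.3% against 10.2%, without LLY-283 repeat 3 11.5% against 10.8%, and with all 24 libraries in a single fit 7.69% against 5.99%, so the gap to the background depends on the libraries.

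MT-CO2 (chrM:7586-8269) had 3057, 2936 and 2810 CPM in the vehicle and 3601, 4065 and 4200 CPM in the LLY-283 libraries of day 5 (log2 difference 0.46 ± 0.065, 1.37-fold, adjusted p = 0.000494). MT-ND3 had 545.1, 525.7 and 497.7 against 642.0, 701.2 and 693.6 CPM (0.40 ± 0.042, 1.32-fold, adjusted p = 1.91e-07). In both genes, and in 8 of the 13, every LLY-283 library was above every vehicle library, which held for 23.3% of all genes. The other called genes were MT-ATP8 (0.28 ± 0.059, adjusted p = 0.00422), part of whose reads cannot be told from MT-ATP6, and MT-ND4L (0.23 ± 0.046, adjusted p = 0.000932), which overlaps MT-ND4. Their overlapping partners MT-ATP6 and MT-ND4, given below, had larger differences but were not called. The calls therefore do not set the genes of a pair apart.

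MT-CO1, the catalytic subunit of cytochrome c oxidase and the 1 of the 13 with the most counts, had 4896, 5205 and 4524 against 5788, 6775 and 6567 CPM and lay just outside the threshold (0.41 ± 0.084, adjusted p = 0.0103). MT-CYB had 1227, 1241 and 1088 against 1408, 1722 and 1722 CPM (0.47 ± 0.12, adjusted p = 0.0397). The differences of MT-CO3 (0.34), MT-ATP6 (0.35), MT-ND4 (0.30), MT-ND6 (0.30), MT-ND5 (0.23), MT-ND2 (0.17) and MT-ND1 (0.12) did not pass, and MT-ND1 overlapped between the groups, with 1362, 1419 and 1164 against 1224, 1489 and 1505 CPM. LLY-283 repeat 1 was the lowest of its group in all 13 mitochondrial genes. Without it 9 mitochondrial genes were called, without vehicle repeat 1 only 2, and in a fit over all 24 libraries 2. The ribosomal RNAs did not pass the test in either direction, at -0.12 ± 0.059 for MT-RNR1 (adjusted p = 0.163) and 0.11 ± 0.055 for MT-RNR2 (adjusted p = 0.148).

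**Figure D4:**
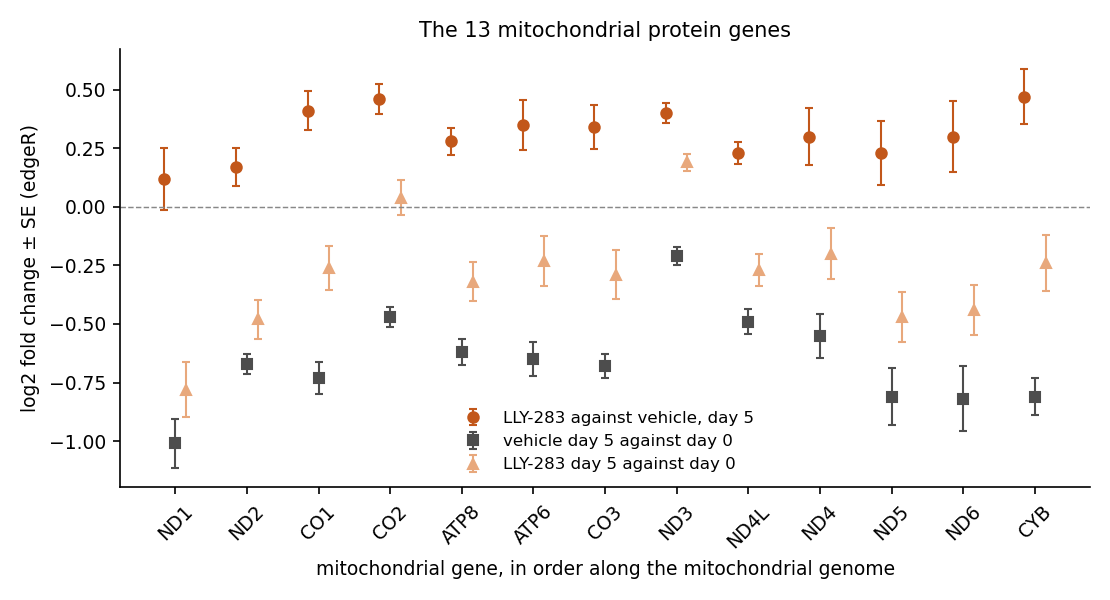
Log2 fold change with its standard error (y axis, edgeR) for the 13 mitochondrial protein genes in their order along the mitochondrial genome, for LLY-283 against vehicle at day 5 (circles), vehicle day 5 against day 0 (squares) and LLY-283 day 5 against day 0 (triangles), comparisons that share libraries. The circles run from 0.12 for MT-ND1 to 0.47 for MT-CYB, the squares from -1.01 for MT-ND1 to -0.21 for MT-ND3.

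In complex III, 3 of the 9 nuclear subunits were lower with LLY-283 at day 5 (33.3%, against 14.1% of all genes) and 0 higher. UQCRC2 had 153.6, 152.6 and 151.4 CPM in vehicle and 130.6, 124.6 and 129.6 CPM in LLY-283 libraries (log2 difference -0.23 ± 0.037, 1.17-fold lower, adjusted p = 1.84e-05). UQCRC1 had 178.8, 180.0 and 181.4 against 160.0, 155.0 and 146.4 CPM (-0.20 ± 0.037, adjusted p = 7.19e-05), and UQCRQ, a small subunit bound to cytochrome b, 82.4, 80.0 and 87.5 against 76.8, 68.9 and 67.2 CPM (-0.21 ± 0.048, adjusted p = 0.00104). In these 3 genes the groups did not overlap, and UQCRC1 and UQCRC2 with LLY-283 stayed above all day 0 libraries. UQCRH, in contrast, had a difference of -0.01 ± 0.037 (adjusted p = 0.789).

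In complex V, 6 of the 19 tested subunits were lower and 1 was higher (31.6% and 5.26%, against 14.1% and 12% of all genes). ATP5MC1 (chr17:48892765-48895871) had 68.9, 60.5 and 67.5 against 55.0, 52.6 and 52.1 CPM (-0.28 ± 0.051, 1.21-fold lower, adjusted p = 8.34e-05), the largest called fall among the members. ATP5MF had 164.4, 156.0 and 155.3 against 138.1, 129.9 and 134.7 CPM (-0.22 ± 0.038, adjusted p = 4.67e-05). The other called falls were ATP5F1C, the gamma subunit of the central stalk (-0.17), ATP5PB of the peripheral stalk (-0.14), and the small membrane subunits ATP5MJ (-0.18) and ATP5MK (-0.16). ATP5IF1, the inhibitor protein that blocks ATP hydrolysis when the membrane potential is lost, went the other way, with 69.3, 64.6 and 70.0 against 79.2, 72.8 and 73.1 CPM (0.17 ± 0.046, 1.12-fold, adjusted p = 0.0054). It was called in that edgeR fit but neither by DESeq2 (adjusted p = 0.0369) nor in the edgeR fit over all 24 libraries (adjusted p = 0.299).

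In complex I, 7 of 36 tested subunits were lower and 1 was higher (19.4% and 2.78%, against 14.1% and 12% of all genes). The 7 were accessory subunits: NDUFA13 (113.7, 106.2 and 110.0 against 99.7, 94.3 and 91.0 CPM; -0.19 ± 0.041), NDUFB9 (703.5, 686.3 and 638.2 against 618.4, 566.6 and 581.9 CPM; -0.17 ± 0.038), NDUFB10 (-0.19), NDUFA6 (-0.21), NDUFB6 (-0.21), NDUFB7 (-0.18) and NDUFV3 (-0.15).

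In complex IV, 2 of 14 tested subunits were lower and none higher, a share of 14.3% against 14.1% of all genes. COX7A2 had 61.4, 58.7 and 60.8 against 53.1, 49.6 and 48.1 CPM (-0.24 ± 0.049, 1.18-fold lower, adjusted p = 0.000295). COX5A had 198.9, 208.5 and 207.5 against 187.9, 186.1 and 179.3 CPM (-0.13 ± 0.036, adjusted p = 0.00624), and COX7C was just outside the threshold (-0.12, adjusted p = 0.0128). Under the alternatives tried, the COX5A result stayed the same in 8 and was weaker in 7, against 14 and 1 for COX7A2. Over all complexes, 31 of 78 nuclear members had non-overlapping lower groups and 4 non-overlapping higher groups, against 23.3% of all genes in each direction.

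The number of nuclear calls at day 5 depends on the libraries. It was 20 in all, and 13 without vehicle repeat 1, 32 without LLY-283 repeat 1, 9 without LLY-283 repeat 2, 10 without LLY-283 repeat 3 and 6 (all lower) in the fit over all 24 libraries. The median stayed between -0.13 and -0.06 under each alternative tried, scaling by library size alone giving -0.06 with 12 lower and 3 higher.

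**Figure D5:**
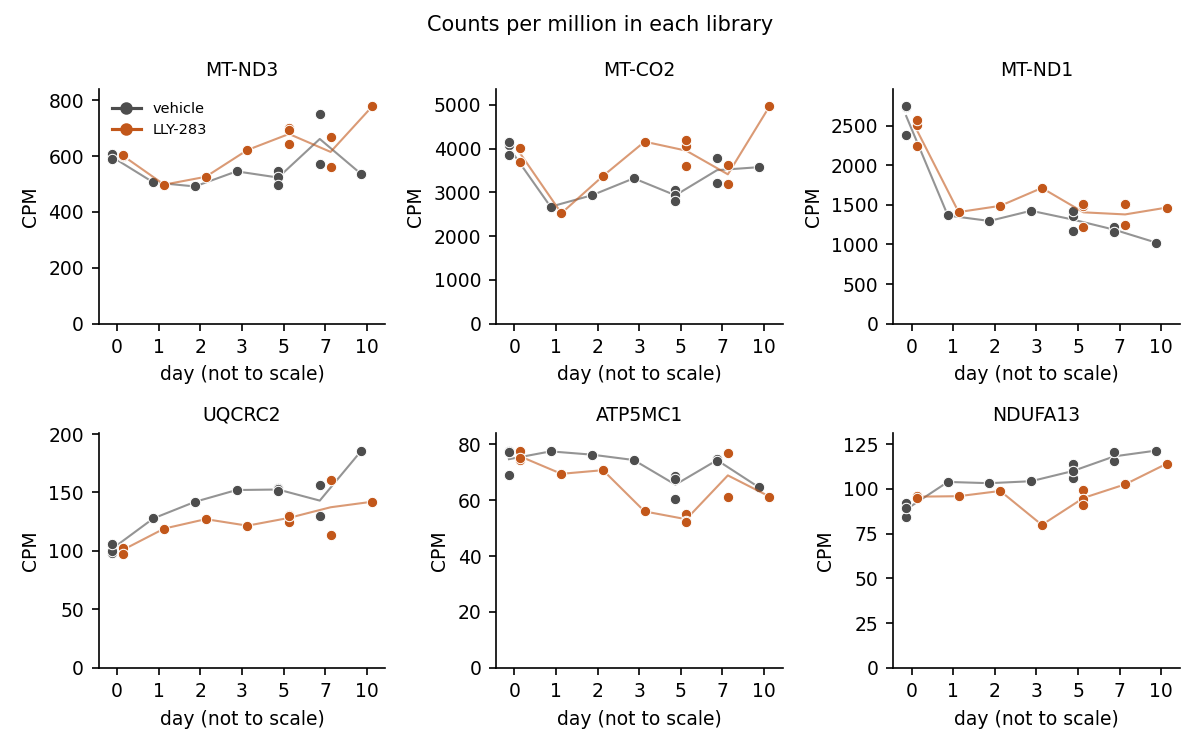
Level in CPM (y axes, from 0) of 3 mitochondrial genes (upper row) and 3 nuclear genes (lower row) by day, with a point for each library and lines through the means of vehicle and LLY-283. MT-ND1 drops by day 1 in both arms, UQCRC2 is lower with LLY-283 at day 5 (124.6 to 130.6 against 151.4 to 153.6 CPM), and NDUFA13 is too (91.0 to 99.7 against 106.2 to 113.7 CPM).

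At day 0 no member was called by edgeR (0 of 78 nuclear and 0 of 13 mitochondrial), 5 nuclear and 0 mitochondrial members had an unadjusted p under 0.05, and DESeq2 called none of either. Over all 17780 genes 3 were called, all higher (0.0169%), and 0.0% lower, and 1012 had an unadjusted p under 0.05. The medians were 0.04 for the nuclear and -0.06 for the mitochondrial members, and all 13 mitochondrial differences were at or below 0 there. Of the nuclear members 4 had non-overlapping higher and 1 non-overlapping lower groups, against 5.51% and 5.71% of all genes.

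Whether the treatment difference at day 5 differed from that at day 0 was tested as an interaction over the 12 libraries of both days. It was called for 12 nuclear members, 11 negative and 1 positive, and for 2 mitochondrial members, MT-CO2 (0.52 ± 0.080, adjusted p = 0.00024) and MT-ND3 (0.41 ± 0.053, adjusted p = 1.71e-06). The medians were -0.12 for the nuclear, 0.39 for the mitochondrial members and 0.04 for all 18369 genes, of which 14.9% were called, 6.78% positive and 8.15% negative. The negative calls were NDUFA6, NDUFA13, NDUFB9 and NDUFB10 in complex I, UQCRC1, UQCRC2 and UQCRQ in complex III, and ATP5F1C, ATP5MC1, ATP5MF and ATP5MJ in complex V, from -0.19 (ATP5F1C) to -0.29 (NDUFA6). No nuclear complex IV member passed, by edgeR or by DESeq2 (0). An unadjusted p under 0.05 was reached by 7 of 14, against 6390 of all 18369 genes. These counts rest on few repeats: the nuclear count was 5 on omission of repeat 1 of LLY-283 at day 0, 5 for repeat 2 and 5 for repeat 3 of LLY-283 at day 5, 3 for repeat 1 and 7 for repeat 3 of vehicle at day 5, and 0 with all 24 libraries in a single fit, and the mitochondrial count was 5 on omission of repeat 1 of LLY-283 at day 5 and 0 with all 24 libraries. Counts over all genes in these alternative fits are not given here.

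The 8 libraries of days 1, 2, 3 and 10, with a single library per arm and day, were fitted with day as a factor. No member was called by edgeR (of all 17042 genes 3 were, 0.0176%, all higher, and 0.0% lower). An unadjusted p under 0.05 was reached by 19 of 78 nuclear and 13 of 13 mitochondrial members, and by 2997 of all 17042 genes. DESeq2 called none of the nuclear and 1 of the mitochondrial members, and 26 of all genes. The medians were -0.08 for the nuclear and 0.27 for the mitochondrial members, against 0.00 over all genes. LLY-283 was higher on all 4 days for 6 mitochondrial genes (MT-ND1, MT-ND4, MT-ND4L, MT-CYB, MT-CO1 and MT-CO3) and 1 nuclear member (NDUFA10), and lower on all 4 days for 24 nuclear and 0 mitochondrial members, against 13.1% higher and 14.2% lower among all genes. At the weaker threshold of 0.05, which 94 of all 17042 genes passed, MT-CO1 and MT-ND4L were higher and UQCRC1 was lower (adjusted p = 0.0455 each).

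MT-CO1 had 5056 CPM with vehicle and 5342 with LLY-283 on day 1, 5361 and 6608 on day 2, 5667 and 7622 on day 3, and 6371 and 8358 on day 10. UQCRC1 had 155.4 and 140.9, 161.0 and 136.2, 164.0 and 122.5, and 206.7 and 168.1 CPM on the same days. For both genes the gap was wider on day 3 than on day 1. MT-CO2 had no such gap on day 1, with 2673 CPM with vehicle and 2524 with LLY-283, and then had 2937 and 3376 on day 2, 3323 and 4161 on day 3, and 3577 and 4968 on day 10.

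At day 7 the order of the arms differed between the repeats for some members. UQCRC2 had 156.3 and 129.8 CPM in vehicle repeats 1 and 2 and 114.0 and 160.7 CPM in LLY-283 repeats 1 and 2. MT-ND3 had 570.6 and 751.5 against 668.9 and 560.4 CPM in the same order. For both genes repeat 1 had the day 5 direction and repeat 2 the reverse of it. MT-CO1 had 4922 and 5308 CPM in vehicle repeats 1 and 2 and 6922 and 4876 CPM in LLY-283 repeats 1 and 2, so its repeat 2 was reversed too.

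Isoforms that are restricted to other tissues were near or at 0. COX4I2, a lung isoform, and COX6A2, a heart and muscle isoform, had 0 counts in all 24 libraries, COX7B2 had counts in 1 library, COX8C in 10 and COX7A1 in 20, with the last 2 averaging 0.0484 and 0.134 CPM. The ubiquitous counterparts COX4I1, COX6A1, COX7B, COX8A and COX7A2 had at least 48.1 CPM in every day 0 and day 5 library. NDUFA4L2, known as a hypoxia-induced paralogue of NDUFA4, averaged 2.24 CPM against 258.3 CPM for NDUFA4, with no call in any of the 6 comparisons for either. COX6B2, a testis isoform, averaged 0.656 CPM, and COX6B1 was not called (-0.05 at day 5 and -0.01 in vehicle culture). UQCRHL (1.17 CPM) is a near copy of UQCRH and ATP5MGL (0.212 CPM) of ATP5MG, and the read-through genes ATP5MF-PTCD1 (14.9 CPM) and NDUFC2-KCTD14 (0.149 CPM, counts in 10 libraries) share sequence with ATP5MF and NDUFC2, so their counts are uncertain.

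The rule left out 7 respiratory genes (the subunits of succinate dehydrogenase, cytochrome c, cytochrome c1 and NDUFAB1). In vehicle culture 5 of them were called higher (71.4%, against 22.2% of all genes). At day 5 of LLY-283 2 were lower and 0 higher (28.6% and 0%, against 14.1% and 12% of all genes, median -0.06). Those lower were CYCS, cytochrome c (567.2 ± 18.3 CPM with vehicle, 483.4 ± 29.7 with LLY-283, SD, n = 3; log2 difference -0.21), and NDUFAB1, the mitochondrial acyl carrier protein and complex I subunit (84.9 ± 4.80 against 72.4 ± 3.98 CPM, SD, n = 3; -0.21). SDHB, the iron-sulfur subunit of succinate dehydrogenase, did not pass (-0.10, adjusted p = 0.12).

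Of 48 assembly factors, which build the complexes without being part of them, 8 were lower and 2 higher at day 5 (16.7% and 4.17%, against 14.1% and 12% of all genes; median -0.10). NDUFAF3, which acts early in complex I assembly, had 29.0 ± 0.878 CPM with vehicle and 18.5 ± 0.832 with LLY-283 (SD, n = 3; -0.63 ± 0.068, adjusted p = 3e-08), a larger difference than that of any called member. NDUFAF2 (-0.37) and COA7, a factor of complex IV (-0.26), also fell, and SURF1 (0.30) and SDHAF3 (0.22), which serve complexes IV and II, rose. In vehicle culture NDUFAF3, NDUFAF2 and COA7 were not called (-0.04, 0.04 and 0.00).

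Of 31 genes for mitochondrial DNA maintenance, transcription and RNA processing, 7 were lower and 0 higher at day 5 (22.6% lower, against 14.1% of all genes; median -0.10, with 7 of the 31 differences above 0). TFAM, which packages mitochondrial DNA and starts its transcription, had 120.5 ± 3.25 CPM with vehicle and 89.9 ± 5.05 with LLY-283 (SD, n = 3; -0.40 ± 0.042, adjusted p = 1.73e-08). TFB2M, the partner factor of the mitochondrial polymerase, differed by -0.32 and SSBP1, the single-stranded DNA binding protein, by -0.19, both called, as were SLIRP (-0.30), TRMT10C (-0.22), FASTKD5 (-0.24) and TWNK (-0.18). The polymerase itself, POLRMT, did not pass (-0.10, adjusted p = 0.0582).

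Of 10 nuclear regulators of respiratory genes, 2 were higher and 4 lower at day 5, where 12% and 14.1% of all genes were called (median -0.07). PPARGC1A, a coactivator of mitochondrial biogenesis, had 33.6 ± 1.09 CPM with vehicle and 45.9 ± 3.04 with LLY-283 (SD, n = 3; 0.47 ± 0.057, adjusted p = 2.03e-07), and TFEB, a regulator of lysosomal genes, 2.49 ± 0.562 and 5.44 ± 0.599 CPM (1.14 ± 0.18). MYC, which activates many growth and mitochondrial genes, had 456.9 ± 13.5 and 356.8 ± 6.07 CPM (-0.33 ± 0.034, adjusted p = 1.41e-08), and PPRC1 (-0.20), GABPB1 (-0.26) and YY1 (-0.14) were lower too. In vehicle culture MYC, PPARGC1A and YY1 rose (0.82, 0.64 and 0.28) while GABPA fell (-0.27). NRF1 was not called at day 5 (-0.08) or in vehicle culture (-0.07).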

How the data were processed

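Total RNA from HSJD-DIPG-007 cells was poly(A) selected, made into directional libraries and sequenced as paired 41 bp reads. The authors pseudoaligned trimmed reads to the hg38 transcriptome with kallisto and deposited a table of estimated counts per gene, which were rounded to whole numbers here. The annotation release and strand setting used by the authors are not given in the sources used here. Pseudoalignment splits reads between near copies: mitochondrial pseudogene rows held 1.6% to 1.9% as many counts as the mitochondrial members.

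Gene names and positions were taken from GENCODE release 44 (58207 of 58676 identifiers matched). Fits used edgeR 4.0.16 in R 4.3.3 (TMM, filterByExpr, robust glmQLFit and glmQLFTest, Benjamini-Hochberg over all genes tested, calls at adjusted p under 0.01). CPM used TMM factors over the 24 libraries. Ratios and shares were tested by exact permutation in Python 3.11.15. DESeq2 1.42.0, other scalings, filters, a threshold of 0.05, a fit with all libraries and the omission of each library were alternatives. In simulated data with 200 changed genes, drawn from all genes tested, at the day 5 depth, 75% of log2 changes of 1 and 58% of log2 changes of 0.5 were recovered. Smaller changes were not simulated. The day 5 medians of the members were smaller, at -0.09 for nuclear and 0.30 for mitochondrial genes, so the recovery of such differences is not known. The members, gene lists and tests were chosen with earlier results of these data known. Named genes were the 13 mitochondrial members, per nuclear complex the 3 of smallest p at day 5 and in vehicle culture and any called against the rest of its complex, isoform pairs, read-through members, ATP5IF1, and from each other list 3 genes by p at day 5. Further genes, and those given for days 1, 2, 3, 7 and 10, were named after their values were seen. Totals of 13835205 to 23190369 counts per library limit precision for genes near 1 CPM. The values of 1 member are not reported here, though it enters every count and sum.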

Additional observations from a re-analysis of the deposited data

Results flagged for a closer look

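For the members named here the difference between LLY-283 and vehicle at day 5 was called as unlike that at day 0 (edgeR interaction term, adjusted p under 0.01). Of the nuclear members tested 14.1% had a negative and 1.28% a positive call. Of the mitochondrial members 15.4% had a positive and 0% a negative call. Over all genes these shares were 8.15% negative and 6.78% positive, and 14.9% in either direction. On the log2 scale the difference of differences was 0.52 for MT-CO2 and 0.41 for MT-ND3. It was -0.29 for NDUFA6, -0.28 for NDUFA13, -0.27 for NDUFB10 and -0.22 for NDUFB9 in complex I, -0.25 for UQCRQ, -0.24 for UQCRC1 and -0.20 for UQCRC2 in complex III, and -0.28 for ATP5MC1, -0.27 for ATP5MF, -0.24 for ATP5MJ and -0.19 for ATP5F1C in complex V. The vehicle libraries of day 5 were shallower than the LLY-283 libraries while at day 0 the depths overlapped, and the part of depth in these values was not tested. With all 24 libraries in a single fit none of them kept its interaction call.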

How the results depend on the processing

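Outside day 0 the medians of both sets kept their sign under every alternative run, but the number of called members moved; where it did, the cause was not tested. At a threshold of 0.05 the counts were 37 nuclear and 7 mitochondrial at day 5, 7 mitochondrial in LLY-283 culture, 21 nuclear and 5 mitochondrial for the interaction and 1 nuclear and 2 mitochondrial over days 1, 2, 3 and 10. Of all genes tested, 6060 of 16491, 9041 of 17341, 4452 of 18369 and 94 of 17042 passed it in these 4 comparisons. DESeq2 called 8 mitochondrial members at day 5, 8 in LLY-283 culture, 4 for the interaction and 1 over days 1, 2, 3 and 10, and its size factors in edgeR gave 5 in LLY-283 culture. Of all genes DESeq2 called 3217, 6053, 2243 and 26 in these 4 comparisons. Without a filter on low counts the mitochondrial counts were 8, 12, 8 and 12 in these 4 comparisons and 2 nuclear members were called over days 1, 2, 3 and 10. The counts over all genes without that filter are not given here, so these member counts have no background beside them. With all 24 libraries in a single fit 6 nuclear and 2 mitochondrial members were called at day 5, 23 and 5 in LLY-283 culture and 0 and 0 for the interaction. Adding day 7 repeat 1 to days 1, 2, 3 and 10 gave 1 nuclear and 3 mitochondrial calls.

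Leaving out each library gave 9 to 32 nuclear and 2 to 9 mitochondrial calls at day 5, 42 to 50 and 7 to 13 in vehicle culture, 31 to 40 and 1 to 4 in LLY-283 culture, and 3 to 15 and 2 to 5 for the interaction. At day 5, where some shares of all genes are given above, the share called lower moved too. Otherwise counts over all genes are not given here for these fits, the single fits or the replicate block. The reversed result was LLY-283 culture without LLY-283 day 0 repeat 2, with 1 mitochondrial call, higher. The ratio difference ranged over 0.36 to 0.52 at day 5, -0.97 to -0.81 in vehicle and -0.44 to -0.26 in LLY-283. For the daily mean only the 6 libraries of day 5 were left out in turn, which gave 0.34 to 0.37. Its value without the day 7 repeat 2 libraries, given above, lay outside that range.

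Over all genes, libraries of equal repeat number did not deviate together (correlations -0.068 to 0.072). In the log2 ratio, LLY-283 repeat 1 was the lowest of its group at day 0 (2.00) and at day 5 (1.56). Vehicle repeat 3 was the lowest of its group too (2.05 and 1.26). A link between repeats in the members alone was not tested. With the replicate block 12 mitochondrial members were called in LLY-283 culture in place of 3, and 22 nuclear lower and 2 higher at day 5.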
